A study of Rattus norvegicus with 15 samples.

Results

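Messenger RNA of H9c2 cells given doxorubicin alone was compared with that of cells given saline, gene by gene, in 6 RNA sequencing libraries. The control group (con, 3 libraries) received PBS, and the DOX group (3 libraries) received 2 µM doxorubicin and was harvested 24 h later. The series holds 15 libraries in 5 groups. The other 9 libraries received 50 µL of a 1 in 20 dilution of DSI, 5 µM AXT or 10 µM DMT for 4 h before the same dose of doxorubicin, and enter only alternative fits and descriptions here. Genes were taken at 1 FPKM or more in at least 3 of the 6 con and DOX libraries, which kept 11092 of the 19328 entries in the authors' deposited table. FPKM scales the fragments of a gene to its length and to the mapped total of the library, so levels of different genes can be set side by side.

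H9c2 is an established line of myoblasts from embryonic rat heart, which divide in culture and can differentiate toward skeletal muscle. The growth medium held fetal bovine serum, and the genotype tag of the labels reads WT for con and DOX for the treated cells, with no genetic change named. Doxorubicin slides between the base pairs of DNA, holds topoisomerase II on broken DNA and takes part in redox cycling. Cells exposed to it are known to stop dividing and to activate p53 and stress signalling. Those responses have well known marker genes, and the account below turns to the other gene families of the cell, such as its matrix, junction, lysosome, membrane, chromatin and RNA genes.

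Read depth is unknown, because no whole-read steps could be recovered from the deposited FPKM. Whether the libraries of a group came from separate cultures is not in the labels, so p-values measure only the spread between these samples, which may be technical. FPKM summed to between 433383 and 451393 in con and to between 447477 and 466512 in DOX. Across genes (not independent replicates), Pearson's r of log2(FPKM + 1) ran from 0.991 to 0.996 within groups and from 0.952 to 0.961 between them. The labels call the cells cardiomyocytes, and most of the defining markers were near 0. Of 10 cardiomyocyte markers, 2 were tested, Tnnt2 (cardiac troponin T), at 204.4 FPKM in con and 81.2 in DOX, and Nkx2-5, a cardiac transcription factor, at 5.16 and 6.77, while Myh6, Myh7, Nppa, Tnni3, Actn2, Ryr2 and Mybpc3 reached at most 0.204 FPKM in any of the 6 libraries and Pln at most 0.545. Among the myoblast markers, Myod1 was at 18.1 FPKM in con and 19.6 in DOX (limma adjusted p = 0.183), Cdh15 was at 59.2 and 39.1 FPKM, and Pax7 was listed at 0 in all 6. The summed level of 7 myoblast markers was 177.3 to 185.3 FPKM in con and 68.2 to 73.1 in DOX, and Myog alone went from 93.9 to 2.38 FPKM. Markers of fibroblasts summed to 4790.1 to 4993.2 FPKM in con and 2471.7 to 2896.1 in DOX, mostly from the collagen genes Col1a1, Col1a2 and Col3a1. Of the other fibroblast markers, Dcn was listed at 0, and Pdgfra and Tcf21 reached at most 0.0365 and 0.0431 FPKM. Markers of smooth muscle summed to 4203.9 to 4486.1 and 2877.1 to 3056.4 FPKM, led by Acta2. Endothelial markers summed to at most 0.252 FPKM and leukocyte markers to at most 2.21 FPKM in any library. The cardiomyocyte sum was 200.8 to 218.4 FPKM in con and 79.9 to 96.7 in DOX, and the epithelial sum, mostly Krt8, 9.33 to 10.0 and 5.36 to 6.0. Within these lists Nkx2-5, Postn, from 7.57 to 9.26 FPKM, and Chrna1, from 0.267 to 1.44, were called higher. Not called were Myod1, Des (5.76 and 5.41 FPKM), Thy1 (147.4 and 164.7) and Tagln (961.8 and 1013). The part of these cell types in the results below was not tested.

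limma called 6268 of the 11092 genes (56.5%) at a Benjamini-Hochberg adjusted p under 0.05, 3621 (32.6%) higher and 2647 (23.9%) lower in DOX. Most changes were small. The calls that also changed at least 2-fold on the log2(FPKM + 1) scale numbered 354 higher (3.19%) and 224 lower (2.02%), 5.21% together. All tested genes had a median log2 change of 0.04, which median scaling of the libraries moved to -0.0133 and quantile normalization to -0.0065. Higher calls were 57.8% of calls, against 48.5% (3036 higher and 3225 lower) after median scaling and 49.4% (3142 higher and 3213 lower) after quantile normalization. In these bulk samples, fewer cells of a type and less RNA per cell cannot be told apart.

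The share of large changes varied with the level in con. Of 257 genes with a con mean below 1 FPKM, 89 (34.6%) were called and at least 2-fold higher and 0 lower, but such genes had entered the test through their DOX level and could hardly fall. From 1 to 5 FPKM, 106 of 2677 genes (3.96%) were 2-fold higher and 34 (1.27%) 2-fold lower. Below 5 FPKM the pseudocount of 1 limits how far a gene can fall on this scale, so rises and falls cannot be set against each other there. Between 5 and 20 FPKM, 100 of 4632 genes (2.16%) were higher and 122 (2.63%) lower. At 100 FPKM or more, 7 of 641 genes (1.09%) were 2-fold higher and 5 (0.78%) 2-fold lower. In all, 10498 genes reached 1 FPKM in each of the 6 libraries. A further 184 did so in the 3 DOX libraries and in no con library, and 79 of these were among the 354. The reverse held for 67 genes, 17 of them among the 224.

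**Figure D1:**
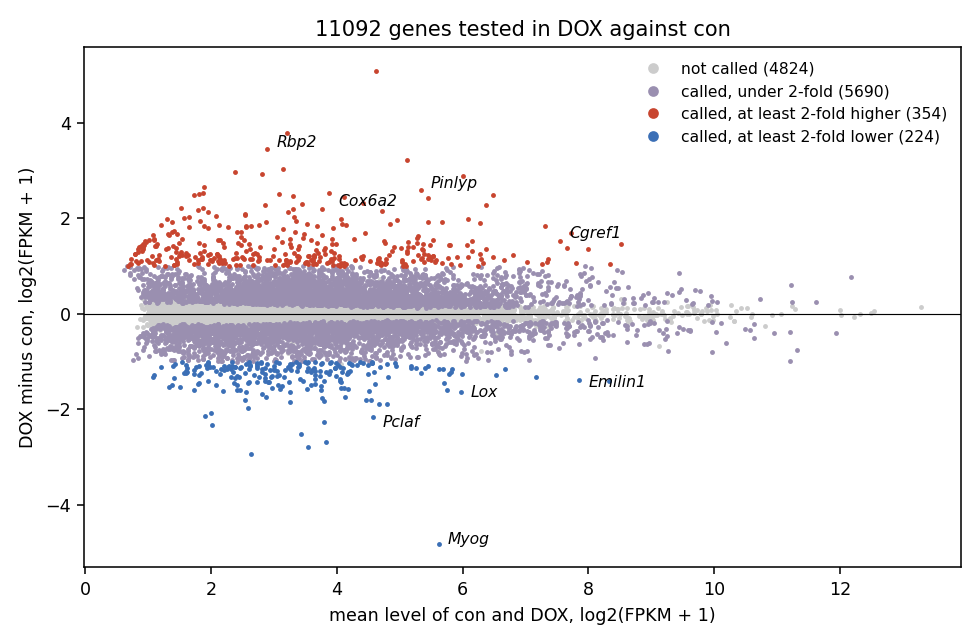
Change of each of 11092 genes (DOX minus con, vertical axis, log2(FPKM + 1)) against its mean level in both groups (horizontal axis, log2(FPKM + 1)). Points are genes, coloured by whether limma called them and whether the change was at least 2-fold; 354 were 2-fold higher and 224 lower, and the spread of changes was wider to the left of the plot.

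Outside the best known p53, stress, cell cycle and muscle genes, and at a mean of 5 FPKM or more in the higher group, the 10 largest rises included genes of retinol binding, the kidney filter and tight junctions. Rbp2, the cellular retinol-binding protein of the gut, was at 0.242, 0.136 and 0.37 FPKM in the con libraries and at 14.5, 13 and 10.5 in the DOX libraries. Its lowest DOX library stood far above its highest con library (log2 change 3.45 ± 0.12 (SE), n = 3 per group, limma adjusted p = 5.95e-08). Nphs1, the gene of nephrin of the kidney filter, was at 0.137, 0.216 and 0.171 FPKM in con and at 7.65, 8.11 and 8.93 in DOX (2.97 ± 0.09 on the log2 scale, limma adjusted p = 2.44e-08). Tjp3, which encodes the tight junction scaffold ZO-3, was at 0.738, 0.625 and 0.538 FPKM and then at 11.1, 10.7 and 12.6 (2.93 ± 0.09). The choice of the rises and falls required a call and no overlap of the groups, so neither is separate support. Rbp2, Nphs1 and Tjp3 were under 1 FPKM in every con library and entered the test through their DOX level.

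Hapln3, a link protein that ties proteoglycans to hyaluronan, went from 0.918 ± 0.111 to 14.8 ± 1.90 FPKM (mean ± SD, n = 3; log2 change 3.04 ± 0.10 (SE), limma adjusted p = 4.62e-08). Adgrf3, an adhesion G protein-coupled receptor gene, was listed at 0, 0 and 0.0389 FPKM in con and at 5.08, 5.16 and 5.88 in DOX (log2 change 2.65 ± 0.09). Prodh2, which encodes hydroxyproline dehydrogenase, was at 0.12, 0.123 and 0 FPKM and then at 5.25, 5.58 and 4.91 (2.53 ± 0.09). Adgrf3 and Prodh2 had thus hardly been detected in con and entered the test through their DOX level. Hapln3, at a con mean under 1 FPKM, could likewise enter only through DOX. Pinlyp, a phospholipase A2 inhibitor gene with a LY6/PLAUR domain, was already present, at 11.4, 10.9 and 9.34 FPKM in con and 69.1, 68.8 and 66.7 in DOX (2.59 ± 0.07, limma adjusted p = 2.05e-08). Cox6a2, the muscle form of a cytochrome c oxidase subunit, rose from 3.31 ± 0.267 to 23.9 ± 2.10 FPKM, and Ankrd13d, an ankyrin repeat gene of receptor endocytosis, from 4.33 ± 0.161 to 28.1 ± 0.775. The tenth gene, LOC108348093, has a provisional symbol and was at 1.5, 1.66 and 1.37 FPKM in con and 13.4, 13.3 and 13.4 in DOX.

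Among the largest falls were genes of matrix, adhesion, caveolae and arginine synthesis. Lox, the lysyl oxidase that cross-links collagen and elastin, was at 95.7, 89.3 and 96.5 FPKM in con and at 31, 28.6 and 28.6 in DOX. Its log2 change was -1.64 ± 0.06 (SE, n = 3 per group, limma adjusted p = 5.95e-08), and the choice of these genes required groups that do not overlap. Itga8, an integrin alpha chain gene, went from 20.0 ± 1.08 to 5.16 ± 0.356 FPKM (log2 change -1.77 ± 0.07), and Cavin2, a coat protein of caveolae, from 8.07 FPKM to 1.61 (-1.81 ± 0.12). Ass1, argininosuccinate synthase, was at 5.51, 4.56 and 5.18 FPKM and then at 0.761, 0.222 and 0.221 (-2.14 ± 0.14, limma adjusted p = 2.14e-06). Vegfd, a growth factor gene of lymphatic vessels, was at 5.64, 5.60 and 5.15 FPKM in con and at 0.499, 0.456 and 0.623 in DOX. Sult1a1, a sulphotransferase of phenols, was at 13.3, 13.3 and 13.6 FPKM and then at 4.06, 3.53 and 3.27.

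The remaining falls were in genes active in dividing cells that were not on the list of best known ones. Pclaf, the PCNA-associated factor, was at 37.8, 38.7 and 37.3 FPKM in con and at 6.87, 9.52 and 6.88 in DOX, the deepest of these falls (log2 change -2.17 ± 0.11 (SE), limma adjusted p = 3.21e-07). Lmnb1, the gene of lamin B1 of the nuclear envelope, was at 26.0, 25.4 and 26.3 FPKM and then at 7.11, 6.59 and 7.50 (-1.74 ± 0.07, limma adjusted p = 7.67e-08). For Lmnb1 too, the choice required con and DOX libraries that do not overlap. Kif2c, a kinesin that takes microtubules apart, changed by -1.67 ± 0.11, and Pimreg by -1.86 ± 0.07. In the 9 libraries that had DSI, AXT or DMT before doxorubicin, the 10 largest rises were above every con library and the 10 largest falls below every con library. No test was made of that count, in which the same con libraries serve throughout.

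**Figure D2:**
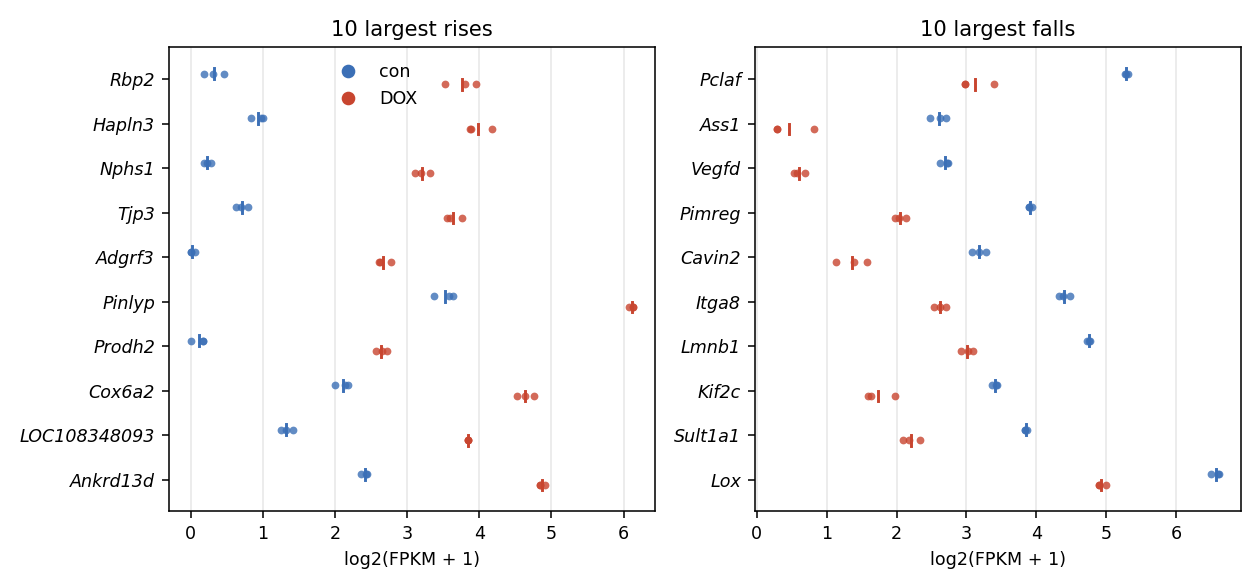
Levels of the 10 largest rises (left) and the 10 largest falls (right) in the 3 con and 3 DOX libraries, as log2(FPKM + 1) on the horizontal axis; dots are libraries and short bars are group means. For each gene the con and DOX dots do not overlap, which the choice of these genes fixed, and Rbp2, Nphs1, Adgrf3 and Prodh2 start near 0.

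The regions just before the start sites of these genes were read for the letters of 8 known motifs, chosen with the changes known. Promoter sequences came from RefSeq, build GRCr8, and 8115 of 10430 single symbols were matched. The AP-1 motif was loosened here to TGANTCA with any middle base, while the usual site has C or G there. In the 250 bases before the start, on either strand, these letters stood in 21 of 256 promoters of 2-fold higher genes (8.2%). They stood in 11 of 175 of 2-fold lower genes (6.29%) and in 4.08% of all 8115. The counts were not split by middle base. AP-1 is the factor made of Fos and Jun proteins. The following stretches show those letters in capitals, in genes that were higher in DOX, and in Adgrf3 the middle base is A. Their first base lies 241 bases before the start in Ddit3, 115 in Adgrf3, 176 in Abcb1a and 181 in Tnfaip3.
Ddit3, chr7:65001445-65001490, + strand: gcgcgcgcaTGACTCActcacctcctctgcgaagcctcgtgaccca
Adgrf3, chr6:31852873-31852939, + strand: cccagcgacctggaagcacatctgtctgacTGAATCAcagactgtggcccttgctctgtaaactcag
Abcb1a, chr4:26397788-26397854, - strand: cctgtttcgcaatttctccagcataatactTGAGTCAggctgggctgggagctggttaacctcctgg
Tnfaip3, chr1:15544124-15544190, - strand: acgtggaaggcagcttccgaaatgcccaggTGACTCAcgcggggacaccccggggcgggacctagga

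Abcb1a, the gene of the efflux pump P-glycoprotein, which carries doxorubicin out of cells, went from 2.97 ± 0.108 to 12.7 ± 0.611 FPKM (SD, n = 3; log2 change 1.78). Tnfaip3, an inhibitor of NF-kB signalling, went from 1.77 ± 0.404 to 7.36 ± 0.229 FPKM. The cell cycle homology region, reduced here to the letters TTTGAA on either strand, stood in 37 of 175 promoters of 2-fold lower genes (21.1%), in 23 of 256 of 2-fold higher genes (8.98%) and in 10.0% of all 8115. This motif is known from promoters of genes that peak late in the cell cycle. It is shown in capitals below, as TTTGAA or, read on the other strand, TTCAAA. Its first base lies 110 bases before the start in Lmnb1, 22 in Top2a, 47 in Cep55 and, at the site nearer the start, 99 in Mki67.
Lmnb1, chr18:52373799-52373864, + strand: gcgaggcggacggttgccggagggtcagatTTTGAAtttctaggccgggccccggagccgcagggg
Top2a, chr10:84473094-84473145, - strand: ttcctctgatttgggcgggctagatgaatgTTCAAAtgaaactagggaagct
Mki67, chr1:199952657-199952722, - strand: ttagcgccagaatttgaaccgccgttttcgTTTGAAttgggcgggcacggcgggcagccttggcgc
Cep55, chr1:245245286-245245351, + strand: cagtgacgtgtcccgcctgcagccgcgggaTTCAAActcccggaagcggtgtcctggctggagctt

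The Mki67 stretch holds a second copy of the letters upstream of the capitals, in lower case. Top2a, whose protein doxorubicin holds on DNA, was at 33.3 ± 2.26 FPKM in con and 10.2 ± 0.621 in DOX, and Cep55, of the midbody of dividing cells, at 16.3 ± 0.301 and 4.82 ± 0.362. The CCAAT letters stood in 47.4% of 2-fold lower, 34.8% of 2-fold higher and 36.3% of all promoters. The ETS letters CCGGAAGT went the other way, with 3.91% of higher, 4.57% of lower and 7.94% of all promoters. The letters TGATGNAA, TGACGTCA and CANCTG were in 2.73%, 4.69% and 41.4% of higher promoters and in 2.29%, 4.0% and 37.1% of lower ones, against 1.6%, 3.09% and 35.3% of all. The antioxidant response element was in 1.95% of higher, 1.14% of lower and 2.03% of all promoters. A match is a run of letters in the sequence, not a bound site.

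Families were formed from gene symbols, 126 in all, of which 120 had at least 5 tested genes. Of the tested genes, 3970 belonged to at least 1 family and 89 to more than 1. In 14 families, at least 3 members were called and at least 2-fold changed in one direction. In 20 families of 20 or more tested genes no member was. Of all genes, 3.19% were 2-fold higher and 2.02% 2-fold lower, so whether a family reached 3 such members, or held none, also depends on its size. A family's counts of calls are read against the 32.6% of all genes called higher and the 23.9% called lower.

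Of 23 tested ADAM and ADAMTS genes, which encode membrane and secreted metalloproteases and, by symbol, ADAMTS-like proteins without protease activity, 13 were lower and 4 higher (median log2 change -0.63, against 0.04 over all genes). Adamts1, which cleaves proteoglycans, was at 139.8, 135.2 and 142.2 FPKM in con and at 59.6, 61.6 and 65.4 in DOX, well apart (-1.15 ± 0.05, limma adjusted p = 2.04e-07). Adamts5, an aggrecanase, and Adamts9 changed by -1.13 ± 0.09 and -1.21 ± 0.12, and Adamtsl2, an ADAMTS-like matrix protein, fell from 2.76 to 0.288 FPKM. Adam8 went the other way, from 0.18, 0.169 and 0.19 FPKM to 3.83, 3.26 and 4.2 (2.01 ± 0.09). At that con level Adam8 entered the test through its DOX level.

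The 14 tested genes of coagulation, plasminogen activation and kallikreins had 7 higher and 4 lower members. Klk4, a kallikrein protease gene, was at 4.51, 4.53 and 4.78 FPKM in con and at 17.3, 18.7 and 21.3 in DOX (1.84 ± 0.08, limma adjusted p = 2.01e-07). Procr, the receptor of protein C, rose from 1.65 ± 0.115 to 5.14 ± 0.367 FPKM, and F3, tissue factor, which starts coagulation, from 74.4 ± 1.96 to 127.2 ± 11.4. Masp1, a complement protease gene, fell from 12 to 3.57 FPKM (-1.52 ± 0.10), and Plat, tissue plasminogen activator, from 32.4 to 22.4. Prss36, a serine protease gene, was at 3.45 and 2.70 FPKM, a call (limma adjusted p = 0.0267) that was lost without con replicate 2 (adjusted p = 0.0974), without DOX replicate 1 (0.0572) and without DOX replicate 2 (0.0762).

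Of 15 tight junction genes and nectins, 6 were higher and 7 lower. Jam3, a junctional adhesion molecule, rose from 28.8, 27.9 and 25.5 FPKM to 63.5, 60.7 and 57.9 (1.12 ± 0.06), and Nectin1 from 1.82 to 4.89. Cldn15, a claudin that forms paracellular channels, fell from 10.1, 10.8 and 9.54 FPKM to 3.24, 3.72 and 3.62 (-1.30 ± 0.08). Cadherins and protocadherins had 0 higher and 7 lower members among 14. Celsr2, of planar cell polarity, fell from 5.26 to 1.94 FPKM (-1.10 ± 0.10), Cdh13 from 90.2 to 65.1 and Cdh15, the cadherin of myoblasts, by 0.59 on the log2 scale, while Cdh11 was at 7.05 and 6.92 FPKM (limma adjusted p = 0.794).

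Of 14 tubulins, 7 were lower and 2 higher. Tubb5 was at 468.8, 476.8 and 454.3 FPKM in con and 302.3, 310.9 and 319.9 in DOX, and Tuba1b fell from 604.6 ± 31.7 to 393.9 ± 2.11. Reads shared between near-identical tubulin copies may have been divided among them, so single members are uncertain. Microtubule-binding proteins had 12 lower and 5 higher of 29, with Mtus2 at -1.43 ± 0.08 and Clip1 down from 26.7 to 15 FPKM. Intermediate filament genes, lamins included, had 6 lower and 2 higher of 14. Besides Lmnb1, Lmnb2 fell from 9.61 to 5.55 FPKM and Krt8 from 9.61 to 4.90. Dynein and dynactin genes had 6 higher (31.6%) and 2 lower (10.5%) of 19, against 32.6% and 23.9% of all genes. Intraflagellar transport and Bardet-Biedl genes had 11 higher (26.8%) and 7 lower (17.1%) of 41, or 9 and 10 after median scaling.

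Most lysosomal hydrolases and their partners rose by small amounts. Of 35 tested, 24 (68.6%) were higher and 2 (5.71%) lower, with a median log2 change of 0.35 and none at 2-fold on that scale. Gaa, acid alpha-glucosidase, was at 72.6, 69.9 and 71.5 FPKM in con and at 123.8, 126.0 and 145.7 in DOX (0.87 ± 0.07, limma adjusted p = 4.24e-06). Npc2, a cholesterol carrier of the lysosome, was at 257.1, 278.7 and 247.6 FPKM and then at 503.0, 465.2 and 468.7. The groups were apart for both. Arsa, arylsulphatase A, rose from 9.68 to 19.3 FPKM, Tpp1, a tripeptidyl peptidase, from 125.2 to 199.8 and Hexa from 104.1 to 150.4, whereas Npc1, the membrane partner of Npc2, was at 13.1 and 12.8 FPKM (limma adjusted p = 0.722). After median scaling 23 were higher and 2 lower.

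Other membrane traffic families differed. Sorting nexins, retromer and ESCRT genes had 37 higher and 9 lower of 82, and SNAREs and synaptotagmins 23 higher and 7 lower of 50. Snx20, a sorting nexin gene, was at 1.54, 0.966 and 1.17 FPKM in con and at 7.79, 8.34 and 9.01 in DOX (2.08 ± 0.11). Syt17 rose from 0.187 to 2.18 FPKM and Sytl1 from 0.788 to 3.30. Both averaged under 1 FPKM in con and could enter the test only through their DOX level. Among 59 genes of COPI and COPII coats and golgins, 10 were higher (16.9%) and 15 lower (25.4%). Clathrin adaptors and dynamins had 13 (22.0%) and 16 (27.1%) of 59, against 32.6% and 23.9% of all genes. Sec24d and Sec23a, subunits of the COPII coat of vesicles leaving the endoplasmic reticulum, fell from 30.2 to 16.7 and from 14.4 to 8.45 FPKM. Phospholipid flippases and scramblases, which move lipids between membrane leaflets, had 1 higher and 9 lower of 15. Ano6, a scramblase gene, fell from 21.1 to 12.8 FPKM. Ion pumps had 2 higher and 5 lower of 12, among them the plasma membrane calcium pumps Atp2b1, from 16.8 to 11.4 FPKM, and Atp2b4, from 4.38 to 2.25.

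**Figure D3:**
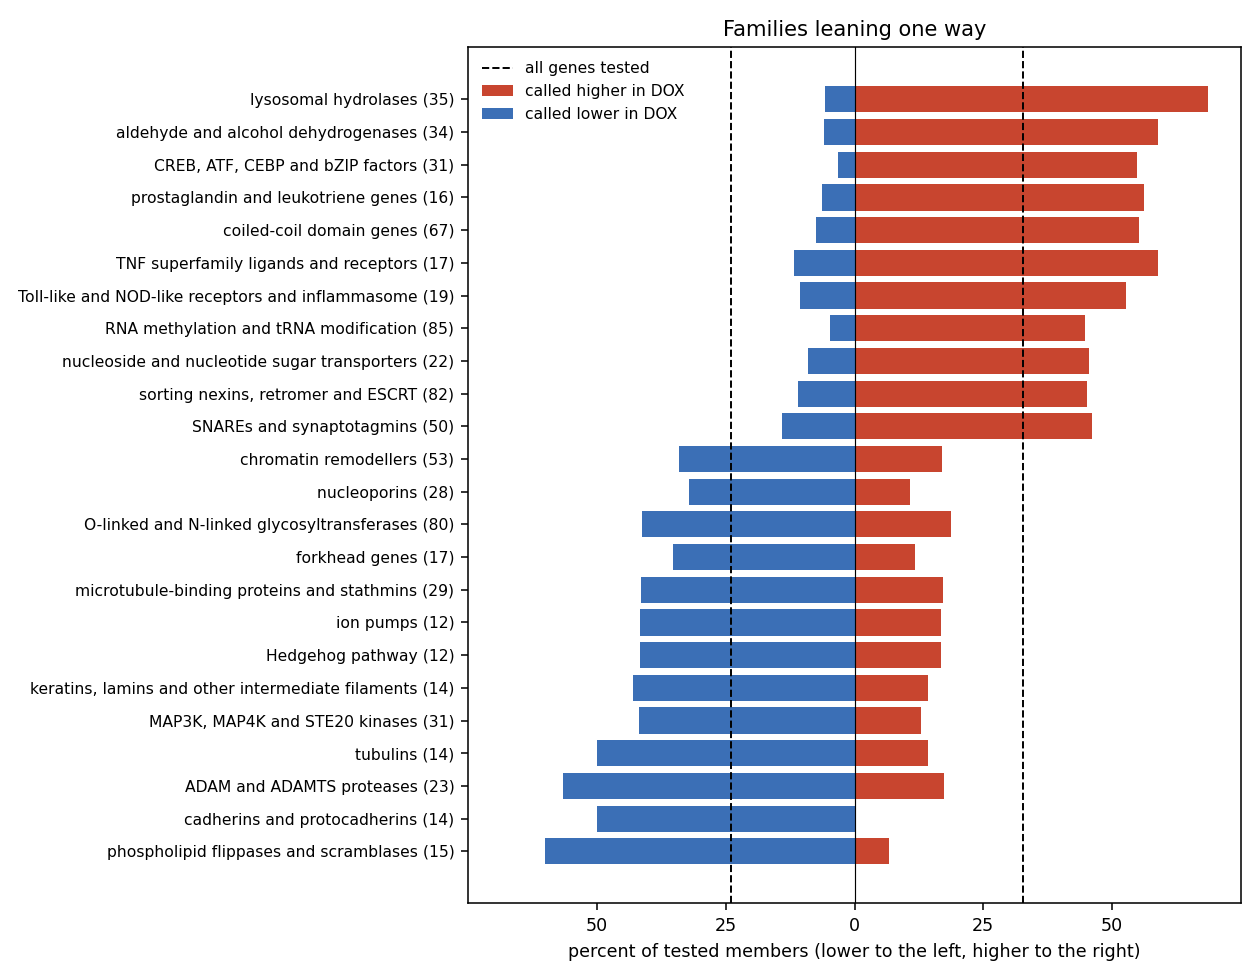
Families of 10 or more tested genes that leaned one way, 1 of them left out, with the percent of tested members called higher (red, to the right) and lower (blue, to the left) in DOX; the number tested is in brackets. Dashed lines mark all genes tested (32.6% higher and 23.9% lower), against which lysosomal hydrolases reached 68.6% higher and 9 of 15 flippases and scramblases were lower.

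Most called enzymes of aldehydes, alcohols and lipid mediators rose. Of 34 aldehyde and alcohol dehydrogenases and aldo-keto reductases, 20 were higher and 2 lower, or 16 and 4 after median scaling. Akr1b10, an aldo-keto reductase, was at 31.5, 33.1 and 29.9 FPKM in con and at 122.4, 121.1 and 119.4 in DOX, with a gap of several fold between the groups (1.91 ± 0.05, limma adjusted p = 2.05e-08). Its relative Akr1b1, aldose reductase, rose from 177.1 ± 12.6 to 345.5 ± 15.1 FPKM, and Aldh1l1, of folate metabolism, from 0.467 to 3.34. Aldh1l1 was under 1 FPKM in every con library and entered the test through its DOX level. The prostaglandin and leukotriene group, which took in epoxide hydrolases by symbol, had 9 higher and 1 lower of 16. Ephx1, microsomal epoxide hydrolase, was at 20.9, 21.4 and 18.9 FPKM and then at 79.4, 78.4 and 81.5 (1.92 ± 0.06, limma adjusted p = 3.4e-08). Ptgr1, prostaglandin reductase 1, rose from 37.6 to 75.4 FPKM.

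Acyl-CoA enzymes and desaturases had 13 higher and 18 lower of 39. Acot2, a mitochondrial thioesterase, rose from 4.50, 4.76 and 4.86 FPKM to 15.2, 13 and 14.7 (1.42 ± 0.08), and Fads3 from 118.3 to 207.6. Elovl6, which lengthens saturated fatty acids, fell from 3.57 to 1.04 FPKM (-1.17 ± 0.14) and Acsl3 from 14.1 to 6.49. Phosphoinositide genes, of 67, had 14 higher (20.9%) and 16 lower (23.9%, the share of all genes). The lower ones included Pik3ip1, an inhibitor of PI3 kinase, from 61.4 to 34.8 FPKM. The higher ones included Itpkc, which phosphorylates inositol trisphosphate, from 6.50 to 16.3, and Plcd4, a phospholipase C, from 0.315 to 3.17. Plcd4 was under 1 FPKM in every con library and entered the test through its DOX level. Glycosyltransferases of O-linked and N-linked chains had 33 lower and 15 higher of 80. Galnt16, which starts mucin-type chains, fell from 25, 24.2 and 25.1 FPKM to 8.82, 10.9 and 10.9 (-1.21 ± 0.08), and Fut8, which adds core fucose, from 26.4 to 15.8. Nucleotide sugar transporters had 10 higher and 2 lower of 22, with Slc35e4 rising from 8.47 to 17.3 FPKM.

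Receptors and adaptors of innate immunity were among the families with few falls. Of 19 Toll-like and NOD-like receptor and inflammasome genes, 10 were higher and 2 lower. Casp4, the caspase that senses cytosolic lipopolysaccharide, was at 11.9, 11.6 and 11.4 FPKM in con and at 52.3, 49.9 and 43.5 in DOX. All DOX libraries lay far above con (1.97 ± 0.07, limma adjusted p = 7.16e-08). Pycard, the adaptor ASC of inflammasomes, rose from 3.50 ± 0.293 to 10.5 ± 1.29 FPKM, and Irak3, a brake on Toll-like receptor signalling, from 9.72 to 18.5. Nod1 was at 2.53 and 1.90 FPKM (limma adjusted p = 0.0192), a call lost without con replicate 1 (0.0611), con replicate 2 (0.0518), DOX replicate 1 (0.0532) or DOX replicate 2 (0.0659). The TNF superfamily with its TRAF adaptors had 10 higher and 2 lower of 17. Traf2 rose from 8.45 to 18.9 FPKM, Traf4 from 21.2 to 42.7 and Tnfrsf9 from 0.829 to 3.26. Tnfrsf9 averaged under 1 FPKM in con and could enter the test only through its DOX level. The 6 leukocyte markers in the table, none of them tested, summed to 1.35 to 1.72 FPKM in con and 1.53 to 2.21 in DOX. Among them Cd3e was at 0.666 to 1.3 FPKM and Cd68 at 0.539 to 0.759 over the 6 libraries, Ptprc reached 0.0385 and Adgre1 was listed at 0, and their part in these changes was not tested.

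Signalling kinases of the MAP3K, MAP4K and STE20 group had 13 lower and 4 higher of 31. Pak3, a p21-activated kinase gene, was at 5.51, 4.59 and 5.34 FPKM in con and at 1.24, 1.90 and 2.15 in DOX (-1.17 ± 0.13), and Tnik, a kinase of Wnt signalling, fell from 3.30 to 1.35. Hedgehog pathway genes had 5 lower and 2 higher of 12. Cdon, a co-receptor of the pathway that also acts in myoblasts, fell from 16 to 8.21 FPKM, Gli2, a transcription factor of the pathway, from 4.25 to 2.79 and Sufu, its inhibitor, from 11.6 to 8.73. Gli3 was at 6.10 and 4.19 FPKM (limma adjusted p = 0.0146), a call lost without con replicate 3 (0.0557) or DOX replicate 2 (0.0545).

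Transcription factor families differed from one another. CREB, ATF, CEBP and other bZIP factors had 17 higher and 1 lower of 31, or 15 and 3 after median scaling. Dbp, a factor of the circadian output, was at 7.52, 7.62 and 6.72 FPKM in con and at 18.8, 17.9 and 19.5 in DOX (1.25 ± 0.07), and Jdp2, a repressor that pairs with Jun, rose from 17.5 to 34.1. Creb3l2, a factor of the secretory pathway, was the 1 that fell, from 16.2 to 10.1 FPKM. Among 25 SOX and other HMG box genes, 8 were higher and 11 lower. Sox9, a factor of cartilage and progenitor cells, was at 8.82, 8.50 and 9.14 FPKM and then at 22.4, 20.6 and 22.8 (1.22 ± 0.07), Hmg20b rose from 22.3 to 58.1, and Hmga2 fell from 13.7 to 7.55.

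The T-box, GATA and bHLH factors other than myogenic ones, 43 tested, had 20 higher and 11 lower. The 3 Myc genes did not move alike. Myc was at 2.95, 2.64 and 3.11 FPKM in con and 7.88, 7.34 and 7.79 in DOX (1.15 ± 0.08), and Mycl rose from 1.17 to 3.77. Mycn, the most abundant of them, fell from 52.9, 53.8 and 51.1 FPKM to 31.1, 31.1 and 30.9 (-0.74 ± 0.05, limma adjusted p = 1.89e-06). Ahr, the receptor of aromatic pollutants, rose from 4.35 to 11.7 FPKM, while Sim2 fell from 19.7 to 8.0. Forkhead genes had 6 lower and 2 higher of 17. Foxo1, Foxo3 and Foxo4, targets of insulin signalling, fell from 7.87 to 4.14, from 9.55 to 6.93 and from 15.1 to 10.9 FPKM.

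Chromatin, nuclear pore and RNA families had small median log2 changes, although single members such as Mettl23 moved by more. Chromatin remodellers had 18 lower and 9 higher of 53, none at 2-fold on the log2(FPKM + 1) scale, with Smarcc1, a SWI/SNF core subunit, down from 36.9 to 24.6 FPKM and Arid2 from 11.1 to 6.63. The counts were 26 lower and 8 higher after median scaling. Nucleoporins had 9 lower and 3 higher of 28, such as Nup107 from 14.6 to 9.65 FPKM and Nup85 from 15.6 to 9.76. Genes of RNA methylation and tRNA modification had 38 higher and 4 lower of 85. Mettl23, a methyltransferase-like gene, rose from 1.98, 1.48 and 1.45 FPKM to 4.93, 5.24 and 5.00 (1.21 ± 0.10), Qtrt1, which inserts queuine into tRNA, from 2.09 to 5.08 and Dus1l, a dihydrouridine synthase, from 5.39 to 10.3. RNA helicases had 17 higher (32.1%) and 8 lower (15.1%) of 53, or 13 and 11 after median scaling. The named ones fell, Dhx9 from 58.1 to 34.3 FPKM and Ddx6 from 27.8 to 17.6.

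Several large families held no called change of 2-fold on the log2(FPKM + 1) scale. Histone methyltransferases and demethylases had 21 higher and 19 lower of 84, acetyltransferases, deacetylases and sirtuins 10 and 8 of 48, Polycomb genes 10 and 9 of 41, and deubiquitinases 19 and 15 of 63. After median scaling the larger count of each turned to the lower side, at 17 higher and 29 lower, 7 and 13, 9 and 10, and 17 and 19. Mediator, TAF and RNA polymerase II genes had 35 higher and 9 lower of 100, with Taf10 rising from 35.9 to 62.2 FPKM. Hippo pathway genes had 7 higher and 6 lower of 28, or 5 and 9 after median scaling. Of these, Ajuba, a LIM protein that restrains the pathway, rose from 33.8, 34 and 32.7 FPKM to 55.7, 57.2 and 59.3, and Tead4, its transcription factor, fell from 7.22 to 3.61. Homeobox genes had 16 higher and 12 lower of 47, or 15 of each after median scaling. Importins and exportins had 8 higher and 12 lower of 32, with Kpna2 down from 88.9 to 51.4. Selenoproteins had 11 higher and 7 lower of 25, or 10 and 9 after median scaling. Txnrd1, thioredoxin reductase, rose from 50.4 ± 1.44 to 90.5 ± 1.43 FPKM.

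Ubiquitin ligase adaptors held changes of both kinds. Of 48 F-box genes 20 were higher (41.7%) and 10 lower (20.8%), or 17 and 13 after median scaling. Ccnf, Fbxo5 and Skp2, which act in cell cycle control, changed by -1.43 ± 0.08, -1.35 ± 0.11 and -1.07 ± 0.08, while Fbxo2, an F-box protein that binds glycoproteins, rose from 1.56 ± 0.651 to 4.96 ± 0.506 FPKM. Kelch, BTB and SOCS-box genes had 25 higher and 19 lower of 76, or 20 and 21 after median scaling. Klhl41, a muscle Kelch protein, fell from 88.3, 90.7 and 85.9 FPKM to 36.7, 34.8 and 37.1 (-1.26 ± 0.05), and Spsb1 from 55.0 to 30.8, while its relative Spsb2 rose from 6.69 to 15.8.

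Among groups held together by symbol alone, 40.1% of TMEM and 42.0% of FAM genes were higher, against 32.6% of all genes. Lower were 21.2% and 25.9%, against 23.9% of all genes. Coiled-coil domain genes had 37 higher and 5 lower of 67 (median log2 change 0.31). Ccdc80, a secreted matrix protein, was at 212.0, 205.3 and 211.0 FPKM in con and at 415.8, 441.4 and 448.2 in DOX (1.05 ± 0.05, limma adjusted p = 2.85e-07). Ccdc8, of the complex mutated in 3-M syndrome, was at 21.6 and 18.6 FPKM (limma adjusted p = 0.0132), a call lost without con replicate 1 (0.0712) or DOX replicate 2 (0.0566). TMEM genes had 55 higher and 29 lower of 137, with Tmem205 up from 4.31 to 13 FPKM and Tmem97, the sigma-2 receptor, down from 26.0 to 11.9. FAM genes had 34 higher and 21 lower of 81, or 29 and 28 after median scaling, with Fam167a up from 6.28 to 25.8 FPKM and Fam111a down from 23.5 to 11.1.

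By a rule set after the values were seen, 11 families leaned to higher and 14 to lower calls. A family leaned if it had at least 10 tested genes, a share of calls in one direction of at least 1.3 times that of all genes, and a share in the other of at most 0.6 times. Each of these families kept the sign of its median and the direction of its larger count after median scaling and after quantile normalization. With all 15 libraries in the fit, Arid2, Atp2b1, Creb3l2, Ddx6, Foxo3, Gli3, Prss36, Sec23a and Sufu lost the call, with limma adjusted p from 0.0523 (Sufu) to 0.271 (Foxo3), while their log2 changes stayed as they were. Shares near those of all genes, as in the histone enzymes, are no result about a family.

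Neighbouring genes were examined in RefSeq order, for which 9685 of 10430 symbols matched. Among 5432 pairs of neighbours that were both tested, 9 had both genes called and 2-fold higher, 7 both 2-fold lower and 5 one of each. Of all genes, 3.19% were 2-fold higher and 2.02% lower, and the pairs are given as a description and nothing is read from their number. Kirrel2, Nphs1 and Prodh2 stand in a row. Kirrel2, which encodes a relative of nephrin, was at 0.0249, 0 and 0.0482 FPKM in con and at 1.35, 1.35 and 1.65 in DOX. All 3 genes of the row were thus near 0 without doxorubicin and entered the test through their DOX level. Pinlyp is next to Xrcc1, a scaffold of single-strand break repair, which rose from 28.5 to 79.4 FPKM (1.44 ± 0.06). Ptprv and Ptpn7, both phosphatase genes, rose from 1.94 to 9.71 and from 0.311 to 5.05 FPKM. Ptpn7 also entered the test through its DOX level. The lower pairs included Adamts1 with Adamts5, and the row of Mybph, Adora1 and Myog. Adora1, the adenosine A1 receptor between the muscle genes Mybph and Myog, was at 2.84, 2.76 and 2.82 FPKM and then at 0.417, 0.489 and 0.619.

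In the 5 opposite pairs, 1 gene was higher and its neighbour lower. Khk, ketohexokinase, rose from 4.88 to 13.1 FPKM between Cgref1, a calcium-binding growth regulator that rose from 95.2 to 276.4, and Emilin1, an elastic fibre protein, which was at 330.2, 333.8 and 330.2 FPKM in con and at 122.4, 122.7 and 136.3 in DOX. Pkp1, plakophilin 1 of desmosomes, rose from 63.5, 61.1 and 63.9 FPKM to 128.1, 137.0 and 148.4 next to Tnnt2, which fell. The further opposite pairs were Hmox1 with Mcm5, Psrc1 with Celsr2, and Bcl2l1 with Tpx2. Whether reads were counted by strand is not given in the sources used here, so reads of overlapping neighbours cannot be told apart.

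More entries were detected at all in the DOX libraries. Above 0 FPKM were 14121, 13803 and 14018 entries in con and 15653, 15869 and 15884 in DOX. The groups did not overlap, and the 9 libraries with an addition, at 14917 to 15831, reached from between them into the range of DOX. At 0.1 FPKM or more the counts were 12645 to 12673 in con and 13420 to 13476 in DOX, at 1 FPKM 10851 to 10878 and 11010 to 11057, and at 5 FPKM 8129 to 8173 and 8157 to 8265, where the groups overlapped. The gap was therefore widest at the lowest levels. Read depth moves such counts and is unknown, so more weakly expressed genes and deeper libraries cannot be told apart.

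**Figure D4:**
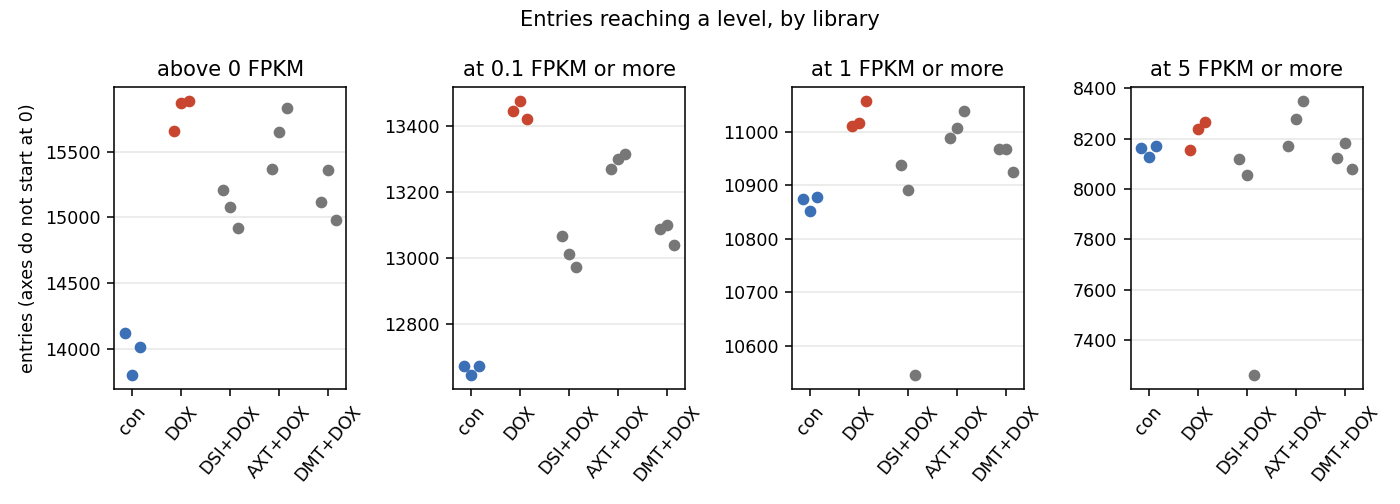
Number of entries per library (vertical axis, not starting at 0) above 0 FPKM and at 0.1, 1 and 5 FPKM or more, for con (blue), DOX (red) and the 3 groups with an addition (grey); each dot is a library. The DOX dots lie above the con dots in the panels up to 1 FPKM, by more at lower levels, and overlap with con at 5 FPKM.

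In total 562 entries were listed at 0 in all con libraries and above 0 in all DOX libraries, with a median DOX mean of 0.0695 FPKM, and 22 were listed the other way round. Of the 562, 10 had a DOX mean of 1 FPKM or more. They included Prss39, a serine protease gene, at 1.88, 1.85 and 1.89 FPKM, Pvalb, the calcium buffer parvalbumin, at 1.67, 2.02 and 1.62, and Upk1b, a uroplakin of the bladder lining, at 1.35, 1.14 and 0.932. Hs3st6, a heparan sulphate sulphotransferase gene, was at 0.835, 1.45 and 1.48 FPKM and Casp14, the caspase of skin, at 1.09, 0.949 and 1.12. LOC686143, with a provisional symbol, was the highest, at 4.63, 5.42 and 3.93 FPKM. In the 9 libraries with an addition, 74 of the 562 were above 0 in every one.

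Entries without an ordinary symbol were counted as well, without regard to their level in con. Of 776 tested genes with a provisional LOC or RGD symbol, 36 (4.64%) were 2-fold higher and 3 (0.387%) 2-fold lower, against 3.19% and 2.02% of all genes. Of 389 without a symbol, 12 (3.08%) were 2-fold higher, near the share of all genes, and 5 (1.29%) lower. Entries whose symbol stood on more than 1 row, 272 tested, had 19 (6.99%) higher and 1 (0.368%) lower. These last were not described by name, since their symbol does not identify the row.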

How the data were processed

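Total RNA of H9c2 cells was extracted with TRIzol and made into libraries with an NEBNext Ultra kit, per the labels' protocols. Trimmomatic, HISAT2, featureCounts and build Rnor_6.0 stand in the submitters' processing notes. The authors deposited 1 FPKM column per library. How counts became FPKM is not given in the sources used here. The table held 19344 rows, 16 of them exact duplicates, which were dropped. No symbol was given for 1315 entries, 204 symbols stood on more than 1 entry and 2 had become dates. A search of 570 low genes for steps of whole reads found none (0.702% shared a ratio at most), so counting intervals and count models were not used.

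Genes reaching 1 FPKM in 3 or more of the 6 libraries were fitted with limma 3.58.1 in R 4.3.3 on log2(FPKM + 1), a pseudocount of 1, with a trend on intensity, 4 residual degrees of freedom and Benjamini-Hochberg adjustment over all 11092. All tests were two-sided. Fold changes are on that scale and understate low genes. On simulated data of 11092 genes for DOX against con, 74% of changes of 0.5 and 97% of changes of 1 on the log2 scale were recovered, with 8 false calls. Each size was put into 100 genes, drawn from those better expressed in con, with independent noise. These rates therefore do not describe weakly expressed genes or data with as many calls as DOX against con. Without adjustment 6817 genes had p under 0.05.

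The comparison, gene families and lists were chosen with earlier results of these data known. The named genes were the 10 largest rises and falls among called genes whose higher group averaged 5 FPKM or more, groups apart and not among the best known markers. Up to 3 members in each direction of the families with at least 3 members 2-fold one way, and up to 2 of those with none, were added, from a mean of 2 FPKM, and members of the other leaning families after their values were seen, as were the neighbours, the promoter genes and Cdh11, Hexa and Npc1. Some genes and 1 family that these rules take are not reported here. Names and neighbour order came from RefSeq, and no coordinates were moved between builds. The settings varied were the pseudocount (0.1), the filter (5 FPKM, or none), the scaling (by median or by quantile), 15 and 14 libraries in the fit, no intensity trend, a replicate block, and each con and DOX library left out in turn. matplotlib 3.10.9 under Python 3.11.15 drew the figures.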

Additional observations from a re-analysis of the deposited data

How the results depend on the processing

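Of the 4 counts of called genes, most alternatives stayed within 1.5 times the reported value. Genes called lower fell from 2647 to 1586 with all 15 libraries in the fit, where DSI+DOX replicate 3, a library of neither group that stands apart, enters the shared spread. Without that library the 14-library fit called 3702 higher and 2674 lower. With a pseudocount of 0.1, 360 genes were 2-fold lower against 224 and 510 were 2-fold higher against 354, since the smaller pseudocount widens the log2 change of low genes. Leaving out each con and DOX library in turn gave 3101 to 3579 genes higher, 2171 to 2767 lower, 343 to 365 2-fold higher and 219 to 238 2-fold lower. The filter at 5 FPKM tested 8475 genes and called 2938 higher and 2083 lower, and no filter tested 17863 and called 4376 and 2543. The replicate numbers did not pair the libraries: same-numbered con and DOX libraries had correlations of deviations of -0.097, -0.0605 and 0.0627, against -0.181 to 0.216 for other numbers. With a replicate block 3498 genes were higher and 2608 lower, with 354 and 225 at 2-fold. Of 3286 values of the 222 named genes under the alternatives, 3252 kept direction and call, 34 of 24 genes lost the call, most of them with all 15 libraries in the fit, and 0 reversed. Of 3120 family counts under the alternatives, 2898 stayed within 1.5 times. With 3 libraries a group, unknown depth and possibly technical replicates, small changes rest on few samples.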
